A study of Mus musculus with 16 samples.

Results

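The Hox genes measured in kidney RNA were the protein-coding rows of the deposited table whose name is Hox followed by a cluster letter (a, b, c or d) and a paralogue number. There were 33 such genes among 30277 in the table, of which 17903 were protein coding. The Hoxa cluster on chromosome 6 held 10 of them, the Hoxb cluster on chromosome 11 held 9, the Hoxc cluster on chromosome 15 held 7 and the Hoxd cluster on chromosome 2 held 7. Hox genes encode homeodomain transcription factors that give positional identity along the body axis of the embryo, and their order along each cluster follows the order in which they are expressed from head to tail. Genes with the same number in different clusters are paralogues, and many act together with TALE homeodomain partners of the Pbx and Meis families. In the embryo the Hox11 genes are required for the metanephric kidney to form, and many Hox genes remain expressed in the adult kidney, with collecting duct and stroma among the known sites.

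The samples were polyadenylated RNA of whole kidneys, perfused and flash frozen, from congenic C57Bl/6J mice aged 46 to 59 days. Klotho, the product of Kl, is a kidney membrane protein that serves as co-receptor for the hormone FGF23, and Kl/Kl mice are labelled as having renal disease. The 4 groups of 4 libraries were male KlKl (Kl/Kl), male control (replicates 1 and 2 +/Kl, replicates 3 and 4 +/+, labelled as having healthy renal function), female KlKl (Kl/Kl) and female control (all 4 +/Kl). The labels do not say how the Kl allele was made or that each library came from its own animal, so p-values measure the spread between these libraries. The questions of the design were the effect of renal failure within each sex and the difference between the sexes.

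The promoters of 3 members are shown as examples. Hoxa5 and Hoxb4 were lower in male kidneys. Hoxd8 had the highest level of all members and no called difference on the deposited scale, but was lower in males after median-ratio scaling. Each of these 3 RefSeq windows, of build GRCm38.p6, runs from 250 bases before to 50 bases after the start of its gene, and the capitals mark the match to AGGTCA, the core motif of many nuclear receptors, on either strand. The Hoxa5 window is chr6:52204538-52204837 on the minus strand, the Hoxb4 window chr11:96318017-96318316 on the plus strand and the Hoxd8 window chr2:74704365-74704664 on the plus strand.
Hoxa5: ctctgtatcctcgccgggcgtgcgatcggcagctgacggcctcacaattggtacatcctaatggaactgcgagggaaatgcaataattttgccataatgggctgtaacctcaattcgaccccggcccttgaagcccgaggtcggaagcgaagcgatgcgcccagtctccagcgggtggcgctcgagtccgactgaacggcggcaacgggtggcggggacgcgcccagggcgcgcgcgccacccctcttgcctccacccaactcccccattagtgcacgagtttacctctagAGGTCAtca
Hoxb4: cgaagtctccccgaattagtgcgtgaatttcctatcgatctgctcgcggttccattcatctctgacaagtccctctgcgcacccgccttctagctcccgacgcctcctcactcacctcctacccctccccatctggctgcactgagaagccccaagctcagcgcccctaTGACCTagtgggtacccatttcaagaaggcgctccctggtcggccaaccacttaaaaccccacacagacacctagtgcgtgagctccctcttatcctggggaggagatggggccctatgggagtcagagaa
Hoxd8: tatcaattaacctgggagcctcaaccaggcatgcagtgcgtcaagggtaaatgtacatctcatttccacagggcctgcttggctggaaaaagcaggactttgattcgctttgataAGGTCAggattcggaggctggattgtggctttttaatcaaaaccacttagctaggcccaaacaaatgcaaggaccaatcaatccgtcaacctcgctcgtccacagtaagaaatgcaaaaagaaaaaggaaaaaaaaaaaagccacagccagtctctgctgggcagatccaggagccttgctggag
RefSeq promoters were matched for 19 of the 33 members, with 21 promoters in all. AGGTCA was found in 7 of these 21 promoters, and in 16.3% of 32851 promoters of the same length. AGAACA, the core of steroid receptor elements such as the androgen response element, was found in 2 of 21 member promoters and in 19% of all, and in none of the 3 windows shown. TGATNNAT, a site of Pbx and Hox dimers, was found in 4 of 21 member promoters and in 8.85% of all, again in none of the 3 windows. Both strands were searched for each motif, and none of the motifs contains another. The relation of these motifs to the differences between groups was not tested.

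Values are TPM as deposited, which in this table are reads divided by the full span of the gene, introns included, and scaled to a fixed total in each library. Recovered depth was 13029357 to 20108528 reads in males and 8209326 to 14504870 reads in females. Kl itself matched the labels, with 0.258 to 1.49 TPM in male KlKl and 7.82 to 11.7 TPM in male control kidneys, and with 0.0728 to 0.222 TPM in female KlKl and 2.04 to 5.73 TPM in female control kidneys. A pair of libraries stood apart. In male KlKl 3, Kap, an androgen-regulated gene of the proximal tubule, had 761 TPM against 4038 to 7074 TPM in the other 7 male libraries, and in female control 3 it had 4607 TPM against 640 to 2375 TPM in the other 7 female libraries. Female control 3 also had 7.06% of its TPM in genes annotated as rRNA, against 0.484% to 1.36% in the other 15 libraries, and the lowest depth. Its age was 57 days, that of male KlKl 4 was 59 and that of female KlKl 4 was 52. All other libraries were of 46 to 49 days. Ddx3y and Xist matched the labelled sex in every library. In every group replicates 1 and 2 have library names starting with CFK and replicates 3 and 4 names starting with CFdk. Whether the sexes were prepared or sequenced together is not given in the sources used here, so sex and such a step cannot be told apart. Markers of the proximal tubule summed to 386 to 1194 TPM per library, and so were present in all 16, and markers of adrenal gland and perirenal fat to 0.313 to 1.52 TPM.

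Hox RNA was detected across all 4 clusters, and a few genes made up most of it. The 10 members with the highest mean TPM held 78.7% of the members' summed TPM, 25 of 33 had at least 10 reads in every library, and 19 averaged 1 TPM or more. The Hoxd cluster held 37.6% of the members' TPM, the Hoxb cluster 32.6%, the Hoxa cluster 22.4% and the Hoxc cluster 7.44%. By mean TPM the highest member was Hoxa5 in the Hoxa cluster, Hoxb4 in Hoxb, Hoxc8 in Hoxc and Hoxd8 in Hoxd, and paralogues 2 and 3 averaged under 1 TPM in every cluster except for Hoxb2 with 1.98 TPM. Summed per cluster, recovered Hoxc reads scaled to the library total (RPM) were 59.0 ± 9.71 RPM in male KlKl and 48.5 ± 3.38 in male control, against 107 ± 14.1 in female KlKl and 101 ± 16.6 in female control kidneys (SD, n = 4 each). In the same order of groups, Hoxa means were 205, 193, 267 and 254 RPM. Hoxb means were 213, 169, 289 and 270 RPM, and Hoxd means 199, 168, 267 and 253 RPM. By RPM the male means were thus below the female means in every cluster. By summed TPM this order did not hold in every cluster. Hoxd averaged 57.0 TPM in male KlKl and 43.7 in male control, against 53.6 in female KlKl and 48.4 in female control kidneys. Summed over all members, Hox reads were 561 to 843 RPM in males, with male KlKl 3 the highest, and 727 to 984 RPM in females, with female control 3 the lowest.

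**Figure D1:**
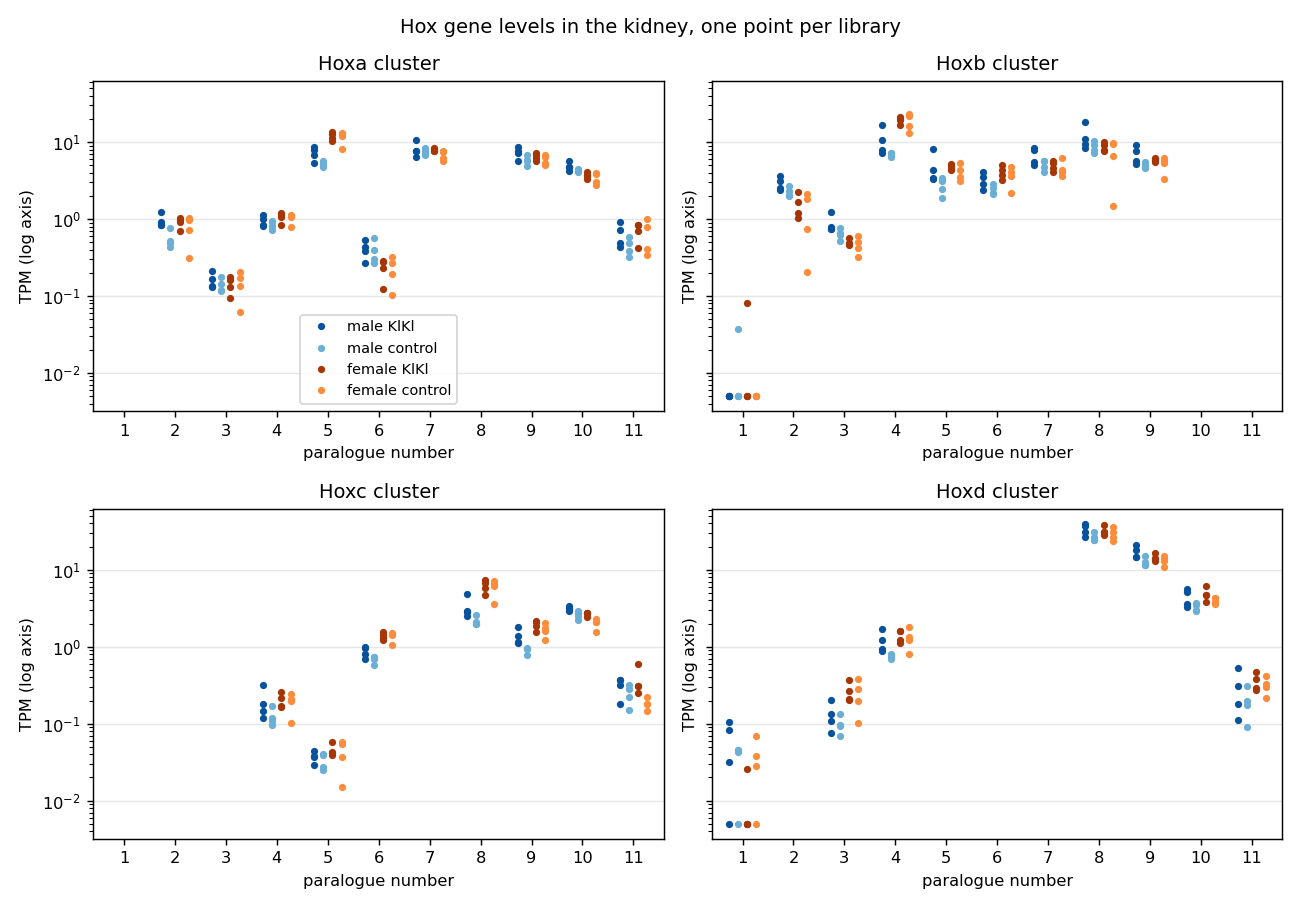
TPM of 32 of the 33 Hox genes on a log axis, by cluster and paralogue number, with 1 point per library and colours for male KlKl, male control, female KlKl and female control. Values under 0.005 TPM are drawn at 0.005, which applies to Hoxb1 and Hoxd1, and the levels of Hoxd8 lie above those of every other member drawn.

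Hoxd8, a member of the central part of the Hoxd cluster, had the highest level, with 39.7, 30.8, 37.4 and 26.9 TPM in male KlKl, 24.2, 26.7, 24.7 and 30.9 TPM in male control, 31.3, 31.2, 38.6 and 28.1 TPM in female KlKl and 36.1, 30.9, 23.8 and 26.4 TPM in female control kidneys. The 4 groups overlapped. Its neighbour Hoxd9 had 18.2, 14.7, 21.04 and 14.9 TPM in male KlKl, 11.4, 12.5, 11.7 and 15.1 TPM in male control, 14.3, 13.9, 16.7 and 12.97 TPM in female KlKl and 15.1, 13.1, 10.8 and 14 TPM in female control kidneys. Hoxd9 levels overlapped between the groups as well, and lay below those of Hoxd8 in every library. Hoxd10, next toward the posterior end and involved in hindlimb motor neurons, ranged from 2.96 to 5.65 TPM in males and from 3.64 to 6.15 TPM in females.

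By TPM, Hoxa7 and Hoxa9 followed Hoxa5 in the Hoxa cluster. For Hoxa7, values were 7.62, 6.48, 10.7 and 7.75 TPM in male KlKl, 7.14, 6.80, 7.56 and 8.40 TPM in male control, 7.62, 8.22, 7.58 and 8.34 TPM in female KlKl and 6.28, 7.62, 5.76 and 7.55 TPM in female control kidneys. The highest Hoxa7 library was male KlKl 3, and the groups overlapped. For Hoxa9, known for its part in blood progenitors and leukaemia, they were 8.64, 7.31, 7.56 and 5.73 TPM in male KlKl, 5.61, 4.86, 5.92 and 6.90 TPM in male control, 7.12, 6.24, 6.86 and 5.63 TPM in female KlKl and 6.33, 6.89, 4.97 and 5.33 TPM in female control kidneys. The Hoxa9 groups overlapped, and male KlKl 1 was the highest.

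In the Hoxb cluster, Hoxb7, Hoxb8 and Hoxb9 lay next to each other and had mean levels of 5.31, 8.97 and 5.73 TPM. Hoxb8, whose loss makes mice groom to excess, had 10.9, 8.43, 18.1 and 9.43 TPM in male KlKl, 7.24, 7.85, 9.28 and 10.5 TPM in male control, 10.1, 7.93, 7.55 and 9.26 TPM in female KlKl and 9.35, 9.62, 1.49 and 6.53 TPM in female control kidneys. Its extremes were the 2 libraries that stood apart, male KlKl 3 at the top and female control 3 at the bottom with 61 reads. Hoxb9, which patterns the ribs, had 7.64, 5.15, 9.07 and 5.65 TPM in male KlKl, 4.80, 4.60, 5.08 and 5.54 TPM in male control, 5.87, 5.96, 6.18 and 5.46 TPM in female KlKl and 5.83, 6.15, 3.30 and 5.40 TPM in female control kidneys, with the same 2 libraries at its ends. Hoxb7, whose promoter is widely used in mice to drive transgenes in the ureteric bud and collecting duct, had 7.78, 5.09, 8.31 and 5.56 TPM in male KlKl, 4.10, 4.77, 5.73 and 5.65 TPM in male control, 5.35, 4.10, 5.60 and 4.67 TPM in female KlKl and 4.12, 4.35, 6.17 and 3.63 TPM in female control kidneys. Groups overlapped for these genes too.

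Because the deposited TPM divides by the full span, levels were also set per length of the spliced transcript, as RPKM of recovered reads over the longest protein-coding transcript, averaged over the 16 libraries. On this scale Hoxd8 was again first with 47.4, followed by Hoxa7 with 34.4, Hoxb4 with 23.7, Hoxd9 with 20.6 and Hoxb6 with 19.4. Hoxb6 and Hoxa10 have long spans and ranked higher per spliced length (5 and 7 among 33) than by TPM. The Hox11 genes, which act in the embryonic kidney, were low in these kidneys at 2.43 for Hoxd11, 1.22 for Hoxa11 and 0.550 for Hoxc11. The anterior genes Hoxb1 and Hoxd1, which act in the hindbrain and face of the embryo, had 0 to 3 reads in every library, and a count of 0 allows up to 3 reads. Hoxc5 had 9 to 55 reads over a span that also contains Hoxc6, Hoxc8, Hoxc9 and Hoxc10. In the deposited annotation 14 members are overlapped by another gene on the same strand, among them Hoxa3 with Hoxa4, Hoxa5 and Hoxa6, and Hoxd3 with Hoxd4, and 14 by a gene on the opposite strand. How the authors' counting treated shared reads is not given in the sources used here, so the split between such neighbours is uncertain.

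No Hox gene passed the test between KlKl and control kidneys, a comparison of whole-kidney RNA in which fewer cells of a type and less RNA per cell cannot be told apart. The fit (limma on log2(TPM + 0.1), Benjamini-Hochberg adjusted over 18273 genes, threshold 0.05) tested 30 members. Hoxb1, Hoxc5 and Hoxd1 fell under the filter of 0.1 TPM in 4 libraries. Over both sexes 0 of 30 members were called, against 0.0219% of all genes tested (4 genes: Kl, Crabp1, Serpina1a and B430119L08Rik). Unadjusted p was under 0.05 for 10 of 30 members with limma, against 22.2% of all genes, and for 0 of 31 with limma voom on recovered reads, against 6% of 17422 genes. Limma voom also called 0 members, against 0.023% of genes. The same test called 0 members in males, where 0.0219% of genes passed, and 0 in females, where 0.0109% passed. At an unadjusted p under 0.05 there were 12 of 30 members in males with limma, against 17% of all genes, and 2 of 30 in females, against 4.99%. With limma voom there was 1 of 31 in males, against 6.19% of genes, and 1 of 31 in females, against 2.56%.

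Differences were positive on average for the Hox genes and for all genes tested on the deposited scale. The median log2 difference of the 30 members, KlKl minus control, was 0.27 over both sexes, against 0.19 for all genes tested. In males these medians were 0.36 for the members and 0.23 for all genes, and in females 0.14 for the members and 0.14 for all genes. All 30 differences were positive on the deposited scale in each sex, while after median-ratio scaling, which sets the typical gene to no change, 25 of 30 were positive in males and 13 of 30 in females. On that scale the median of the members over both sexes was 0.056.

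**Figure D2:**
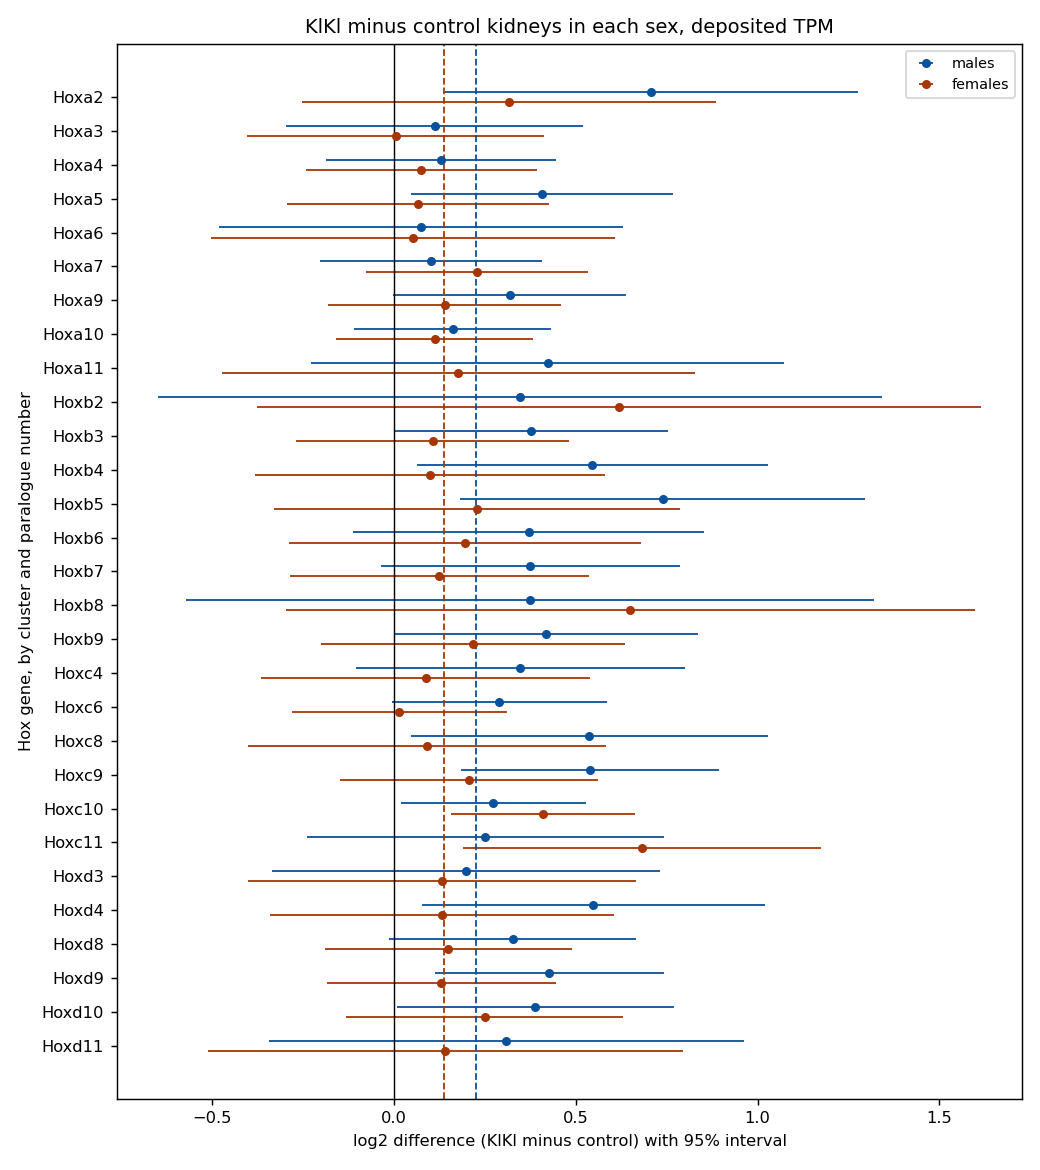
Log2 difference of 29 of the 30 tested Hox genes, KlKl minus control, in males and in females on the deposited scale, with bars for the 95% interval. Dashed lines mark the median of all genes tested (0.23 in males, 0.14 in females), and all intervals contain the line of their own sex except those of Hoxc10 and Hoxc11 in females.

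Hoxc10, which takes part in patterning of the lumbar spinal cord and hindlimb, had the smallest p over both sexes. It had 3.16, 3.23, 2.91 and 3.42 TPM in male KlKl, 2.96, 2.73, 2.25 and 2.54 TPM in male control, 2.73, 2.47, 2.75 and 2.75 TPM in female KlKl and 2.07, 2.07, 1.57 and 2.30 TPM in female control kidneys. In females the groups did not overlap, and in males male KlKl 3 lay below male control 1. The share of all genes whose KlKl and control values did not overlap was not counted. The log2 difference of Hoxc10 on the deposited scale was 0.34 (SE 0.08, limma adjusted p = 0.189) over both sexes. In females it was 0.41 (SE 0.12, limma adjusted p = 0.745). After median-ratio scaling it was 0.12 (limma adjusted p = 0.926) over both sexes, 0.23 in females and 0.00027 in males. Within the libraries named CFK (replicates 1 and 2) the Hoxc10 difference was 0.24, or 0.0079 after median-ratio scaling. Within those named CFdk (replicates 3 and 4) it was 0.45, or 0.22 after that scaling. With age as a term on the deposited scale, the Hoxc10 difference of 0.35 passed at a limma adjusted p of 0.0442. That fit called 2 of 30 members and 1183 of 18273 genes.

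In males the smallest p belonged to Hoxc9, a posterior gene of the thoracic region. It had 1.13, 1.16, 1.82 and 1.37 TPM in male KlKl against 0.967, 0.922, 0.781 and 0.927 TPM in male control kidneys, and 1.86, 2.09, 1.56 and 2.15 TPM in female KlKl against 1.24, 1.75, 1.62 and 2.03 TPM in female control kidneys. The male KlKl values all lay above the male control values, and the female groups overlapped. How many of all genes separated in this way was not counted, and the typical gene was also higher in male KlKl kidneys. The Hoxc9 difference in males was 0.54 (SE 0.17, limma adjusted p = 0.240), and 0.28 after median-ratio scaling. None of the 30 members had a KlKl effect that differed between the sexes (0 called, against 0% of 18273 genes, and 0 members at an unadjusted p under 0.05, against 2.75% of genes with limma and 2.36% with limma voom). The smallest p of this test was that of Hoxd9, with an effect in males minus that in females of 0.30 (SE 0.21, limma adjusted p = 1.00) and a 95% interval of -0.15 to 0.74.

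Between the sexes, a smaller share of Hox genes than of all genes was called on the deposited scale, but a larger share was called lower in males. Over both genotypes 13 of 30 members passed, 8 lower and 5 higher in males, against 53.7% of all genes tested, with 7.20% lower and 46.5% higher. The median log2 difference, male minus female, was 0.33 for all genes tested and -0.081 for the members. After median-ratio scaling 20 of 30 members were lower in males and 0 higher, against 23.7% lower and 23.1% higher of all genes. Scaling on nuclear protein-coding genes gave 15 lower and 0 higher, against 17.5% lower and 27% higher, and limma voom on recovered reads gave 21 lower and 1 higher of 31, against 26.2% lower and 27% higher. The 8 members called lower on the deposited scale were Hoxa5, Hoxb4, Hoxb6, Hoxc6, Hoxc8, Hoxc9, Hoxd3 and Hoxd4, of paralogues 3 to 9, and the 5 called higher were Hoxa6, Hoxa10, Hoxb2, Hoxb3 and Hoxc10. Without male KlKl 3 and female control 3, the deposited scale gave 13 lower and 6 higher over both genotypes, against 9.61% lower and 45.9% higher of 17816 genes. In KlKl kidneys it gave 7 lower and 4 higher, against 4.25% and 38.4% of genes, and in control kidneys 11 lower and 1 higher, against 6.71% and 32.5%. Between KlKl and control kidneys 0 members were called without these libraries, against 0.0168% of genes over both sexes, 0.0786% in males and 0.0168% in females.

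**Figure D3:**
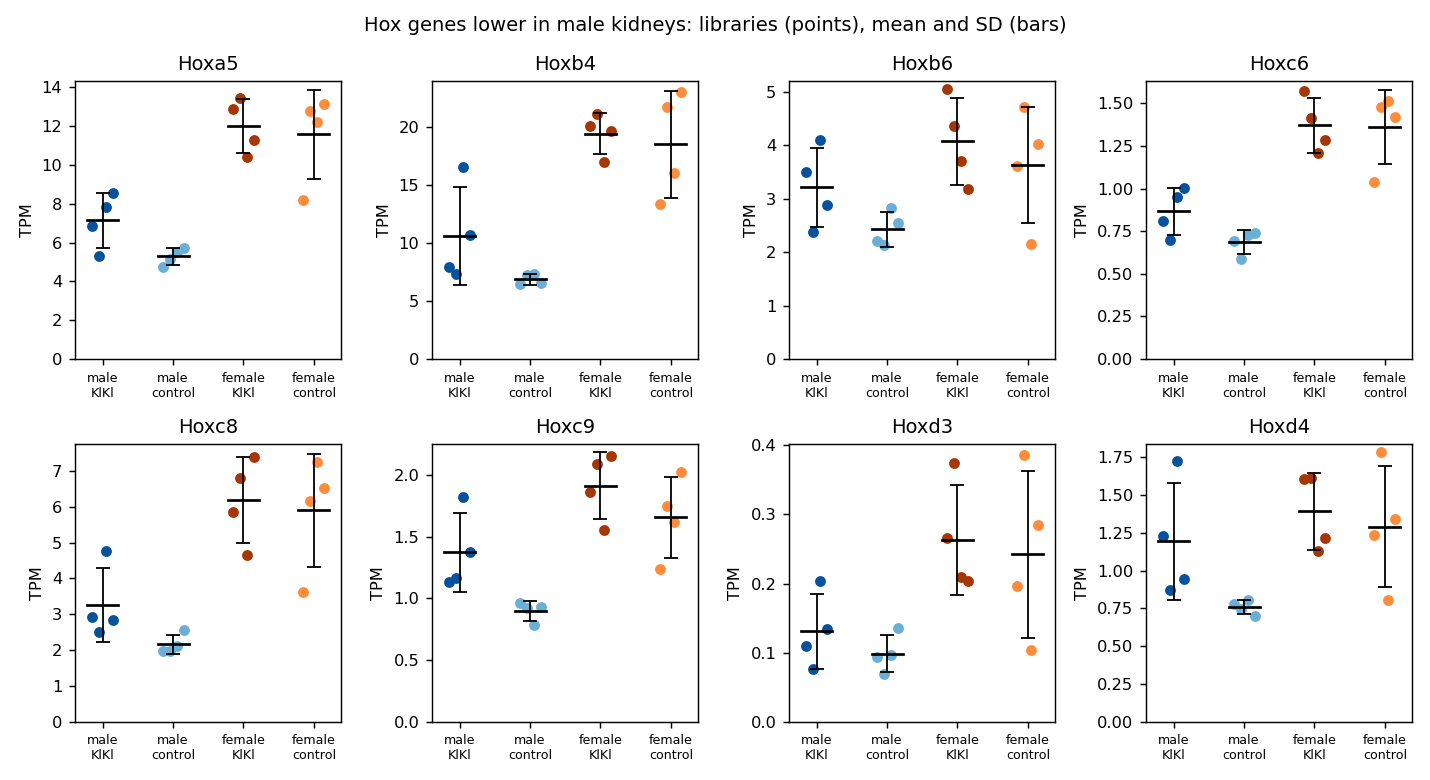
TPM of the 8 Hox genes lower in males, with 1 point per library, a line at the mean of each group and bars of 1 SD, for male KlKl, male control, female KlKl and female control. The mean of male control is the lowest of the 4 in each panel, and in the Hoxb4 panel male KlKl 3 (16.5 TPM) lies among the female libraries.

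Hoxb4, known for promoting the expansion of blood stem cells, had 7.91, 7.31, 16.5 and 10.7 TPM in male KlKl and 6.43, 7.21, 7.32 and 6.50 TPM in male control, against 20.03, 21.1, 16.9 and 19.6 TPM in female KlKl and 13.3, 21.7, 16.01 and 22.9 TPM in female control kidneys. Every male library other than male KlKl 3 lay below every female library. The difference was -1.16 (SE 0.16, limma adjusted p = 3.43e-05), and -1.36 within the CFK names and -0.96 within the CFdk names. Hoxb4 differed by -0.94 between KlKl males and females and by -1.38 between control males and females.

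Hoxa5, needed for lung and trachea formation, had 6.83, 5.33, 7.83 and 8.56 TPM in male KlKl and 4.76, 5.15, 5.51 and 5.72 TPM in male control, against 12.9, 13.4, 10.4 and 11.3 TPM in female KlKl and 8.20, 12.8, 12.2 and 13.1 TPM in female control kidneys. Female control 1 was the lowest female library for Hoxa5 and lay between male KlKl 3 and male KlKl 4. The difference was -0.93 (SE 0.12, limma adjusted p = 2.05e-05), with -1.07 within CFK and -0.78 within CFdk. The Hoxa5 difference was -0.76 in KlKl and -1.10 in control kidneys.

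The Hoxc cluster held 3 of the 8. Hoxc8, a brachial and thoracic patterning gene, had 2.94, 2.51, 4.78 and 2.84 TPM in male KlKl and 1.97, 1.99, 2.12 and 2.56 TPM in male control, against 5.87, 6.82, 4.65 and 7.39 TPM in female KlKl and 3.62, 6.18, 7.26 and 6.54 TPM in female control kidneys. Without male KlKl 3, the males lay below all females for Hoxc8 as for Hoxb4 and Hoxc6, 3 of 30 members, against 1.13% of all genes. The Hoxc8 difference was -1.15 (SE 0.16, limma adjusted p = 4.40e-05), with -1.20 within CFK and -1.09 within CFdk.

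Hoxc6, expressed in the embryo at the level of the forelimb, had 0.810, 0.698, 0.953 and 1.00 TPM in male KlKl and 0.690, 0.586, 0.730 and 0.738 TPM in male control, against 1.57, 1.42, 1.21 and 1.28 TPM in female KlKl and 1.04, 1.48, 1.51 and 1.42 TPM in female control kidneys. All 8 male values of Hoxc6 lay below all 8 female values, which held for 0.558% of all genes tested and for no other member. Its difference was -0.75 (SE 0.10, limma adjusted p = 2.31e-05), with -0.88 within CFK and -0.62 within CFdk. The Hoxc9 levels given above overlapped between the sexes, with male KlKl 3 and male KlKl 4 above female control 1, and its difference was -0.63 (SE 0.12, limma adjusted p = 0.000399), with -0.66 within CFK and -0.60 within CFdk.

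Hoxd3 and Hoxd4, which shape the vertebrae of the neck, have nearly the same start and overlap over the whole of Hoxd4, so their reads may be split between them. Hoxd3 had 0.109, 0.0765, 0.204 and 0.135 TPM in male KlKl and 0.0933, 0.0696, 0.0964 and 0.136 TPM in male control, against 0.265, 0.375, 0.209 and 0.204 TPM in female KlKl and 0.196, 0.387, 0.104 and 0.284 TPM in female control kidneys. The difference of Hoxd3 was -0.69 (SE 0.18, limma adjusted p = 0.00413), and the sexes overlapped, with female control 3 the lowest female library and male KlKl 3 the highest male library. Hoxd4 had 1.23, 0.874, 1.72 and 0.947 TPM in male KlKl and 0.778, 0.746, 0.806 and 0.701 TPM in male control, against 1.61, 1.61, 1.13 and 1.22 TPM in female KlKl and 1.23, 1.79, 0.806 and 1.34 TPM in female control kidneys. The sexes overlapped for Hoxd4, and the difference was -0.44 (SE 0.16, limma adjusted p = 0.0266). Within CFK and within CFdk it was -1.09 and -0.29 for Hoxd3, and -0.73 and -0.15 for Hoxd4, on the deposited scale. After median-ratio scaling these were -1.26 and -0.64 for Hoxd3, and -1.01 and -0.68 for Hoxd4.

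Hoxb6 had 3.49, 2.38, 4.10 and 2.88 TPM in male KlKl and 2.21, 2.13, 2.83 and 2.55 TPM in male control, against 5.06, 4.36, 3.71 and 3.17 TPM in female KlKl and 3.62, 4.71, 2.16 and 4.03 TPM in female control kidneys. The sexes overlapped widely. Its difference was -0.43 (SE 0.16, limma adjusted p = 0.0341), with -0.79 within CFK and -0.07 within CFdk. After median-ratio scaling it was -1.09 within CFK and -0.63 within CFdk. Male KlKl 3 and female control 3 both have CFdk names, and the CFdk controls were +/+ in males and +/Kl in females. The calls of Hoxb6 and Hoxd4 were lost when single libraries were left out, Hoxb6 in 9 of 16 cases and Hoxd4 in 5 of 16, while the other 6 members lower in males kept theirs in all 16.

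**Figure D4:**
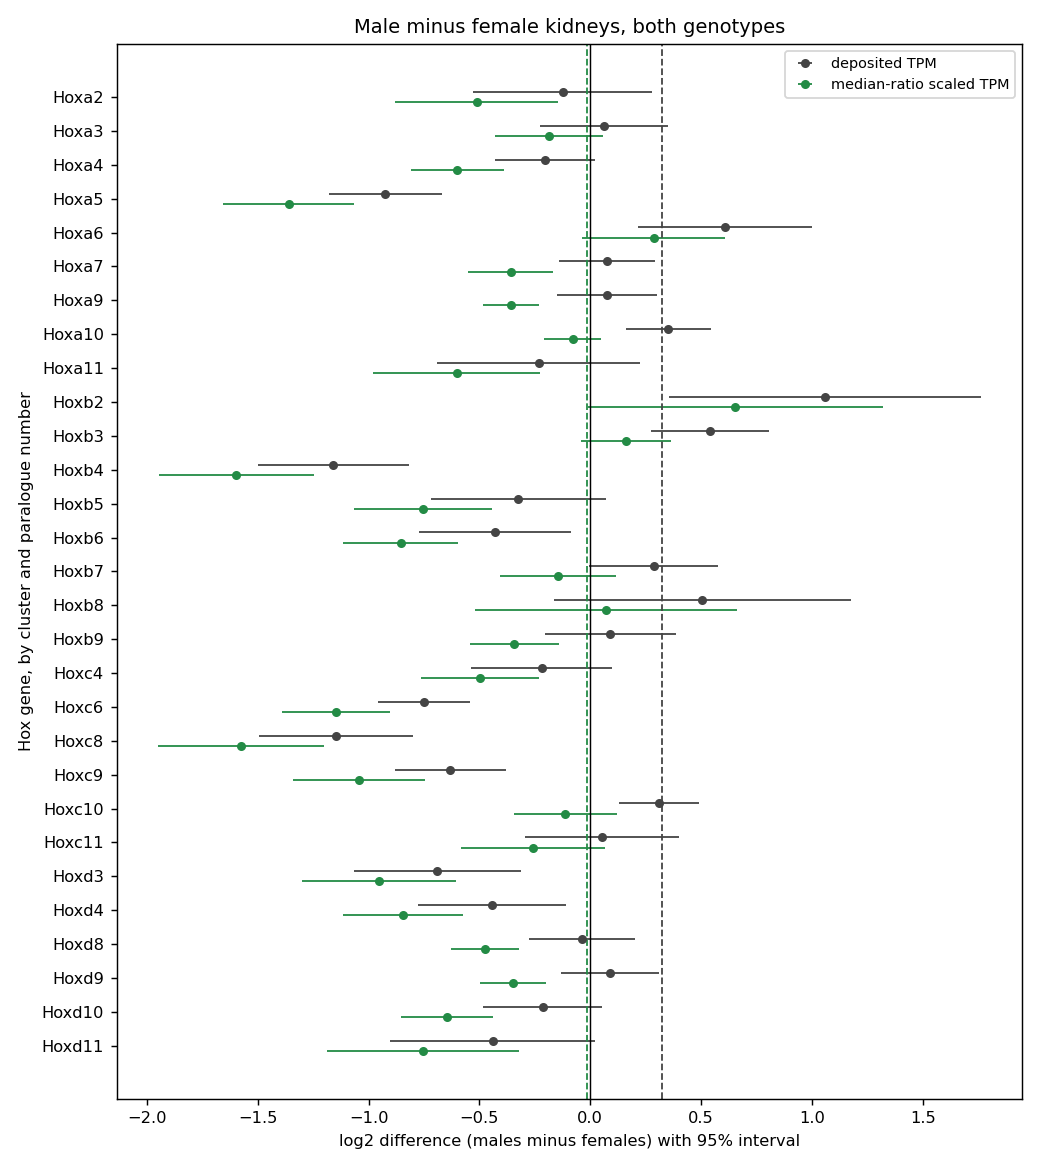
Log2 difference of 29 of the 30 tested Hox genes, male minus female over both genotypes, with bars for the 95% interval, on the deposited scale and after median-ratio scaling. Dashed lines mark the median of all genes tested on each scale (0.33 on the deposited scale), and on the median-ratio scale 25 of the 29 members drawn lie below 0.

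Hoxa6, Hoxa10, Hoxb2, Hoxb3 and Hoxc10, higher in males on the deposited scale, did not pass after median-ratio scaling or after scaling on nuclear protein-coding genes. Hoxa10, required for the uterus and male reproductive tract to develop normally, had 5.64, 4.71, 4.80 and 4.16 TPM in male KlKl and 4.09, 4.16, 4.38 and 4.51 TPM in male control, against 4.06, 3.73, 3.63 and 3.32 TPM in female KlKl and 3.98, 3.89, 3.04 and 2.81 TPM in female control kidneys. All male values lay above all female values for Hoxa10, as for 21.7% of all genes tested and for no other member. The Hoxa10 difference was 0.35 (SE 0.09, limma adjusted p = 0.00400) on the deposited scale, -0.078 after median-ratio scaling and -0.043 with limma voom. Hoxc10, with the levels given above, differed by 0.31 (SE 0.08, limma adjusted p = 0.00603) on the deposited scale, by -0.11 after median-ratio scaling and by -0.0091 after scaling on protein-coding genes.

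Hoxb2 and Hoxb3, neighbours at the anterior end of their cluster that pattern the hindbrain, had positive differences on the deposited scale, after median-ratio scaling, after scaling on protein-coding genes and with limma voom. Both passed on the deposited scale, and Hoxb2 also passed with limma voom (0.66, adjusted p = 0.042). Hoxb3 had 0.781, 0.737, 1.22 and 0.742 TPM in male KlKl and 0.615, 0.520, 0.761 and 0.658 TPM in male control, against 0.565, 0.486, 0.464 and 0.478 TPM in female KlKl and 0.422, 0.605, 0.320 and 0.510 TPM in female control kidneys. Its difference was 0.54 (SE 0.12, limma adjusted p = 0.00206) on the deposited scale and 0.16 (limma adjusted p = 0.181) after median-ratio scaling. Hoxb2 had 2.56, 3.10, 3.60 and 2.40 TPM in male KlKl and 2.00, 2.02, 2.29 and 2.71 TPM in male control, against 1.03, 1.20, 2.22 and 1.68 TPM in female KlKl and 1.82, 2.10, 0.204 and 0.751 TPM in female control kidneys. The lowest Hoxb2 value, in female control 3, came from 9 reads. The Hoxb2 difference was 1.06 (SE 0.33, limma adjusted p = 0.0138), and 0.66 (limma adjusted p = 0.0976) after median-ratio scaling. Hoxa6, a central member of the Hoxa cluster, had 0.528, 0.386, 0.434 and 0.266 TPM in male KlKl and 0.270, 0.29996, 0.392 and 0.566 TPM in male control, against 0.284, 0.124, 0.280 and 0.228 TPM in female KlKl and 0.266, 0.324, 0.103 and 0.196 TPM in female control kidneys. These values came from 3 to 28 reads, and the sexes overlapped. Hoxa6 differed by 0.61 (SE 0.18, limma adjusted p = 0.0117) on the deposited scale and by 0.29 (limma adjusted p = 0.134) after median-ratio scaling. Within the CFK names and within the CFdk names, the deposited-scale difference was 0.44 and 0.77 for Hoxa6, 0.65 and 1.47 for Hoxb2, 0.30 and 0.78 for Hoxb3, 0.23 and 0.47 for Hoxa10, and 0.37 and 0.25 for Hoxc10.

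The other 17 tested members did not pass over both genotypes on the deposited scale. Among them Hoxd8 ranged from 24.2 to 39.7 TPM in males and from 23.8 to 38.6 TPM in females, and Hoxa7 from 6.48 to 10.7 TPM in males and from 5.76 to 8.34 TPM in females. After median-ratio scaling the Hoxd8 difference was -0.48 (limma adjusted p = 0.000139) and that of Hoxa7 -0.36 (limma adjusted p = 0.00471), males minus females. Hoxb5, which acts in gut and neural crest, had 1.89 to 8.21 TPM in males and 3.14 to 5.33 TPM in females. Hoxa2, a patterning gene of the face and ear, had 0.435 to 1.23 TPM in males and 0.311 to 1.03 TPM in females, and Hoxa4 had 0.722 to 1.12 TPM in males and 0.780 to 1.21 TPM in females. Hoxa3, Hoxa11, Hoxc4, Hoxc11 and Hoxd11 averaged under 1 TPM, with the highest single values 0.914 TPM in males and 1.01 TPM in females, both of Hoxa11. The sexes overlapped for each of these members. By cluster, the median difference of the tested members, male minus female, was 0.070 for Hoxa (10 genes), 0.19 for Hoxb (8), -0.43 for Hoxc (6) and -0.33 for Hoxd (6) on the deposited scale. By position, it was 0.090 for paralogues 1 to 3, -0.43 for 4 to 6, 0.077 for 7 to 9 and -0.081 for 10 to 11. After median-ratio scaling the medians were negative for every cluster and every position.

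Within each genotype some members were also called between the sexes, a smaller share than of all genes on the deposited scale. In KlKl kidneys 8 of 30 members passed, 6 lower and 2 higher in males, against 39.6% of all genes, with 2.20% lower and 37.4% higher. In control kidneys 8 of 30 passed, 7 lower and 1 higher, against 38.1% of all genes, with 5.52% lower and 32.5% higher. After median-ratio scaling the counts were 13 lower and 0 higher in KlKl kidneys and 19 lower and 0 higher in control kidneys, against 10.8% and 17% of all genes lower, and 11.5% and 17.4% higher. Hoxa5, Hoxb4, Hoxc6, Hoxc8, Hoxc9 and Hoxd3 were lower in males in KlKl and in control kidneys on the deposited scale, and Hoxd4 passed in control kidneys.

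The make-up of each cluster does not depend on the scaling between libraries, since it is a share of the reads of the cluster within a library. Hoxb4 made up 13.2% to 20.1% of Hoxb reads in males and 24.8% to 40.04% in females, with male KlKl 3 at 18.8%, inside the range of the other males. The ranges did not overlap in the other direction for Hoxb3, with 9.41% to 11.5% in males and 5.63% to 6.39% in females, for Hoxb2, with 4.23% to 6.85% in males and 0.527% to 3.88% in females, and for Hoxb8, with 17.97% to 21.8% in males and 3.77% to 17.7% in females. Within the Hoxc cluster, Hoxc10 made up 21.4% to 34.3% of reads in males and 11.2% to 20.9% in females. Within the Hoxd cluster, Hoxd9 made up 20.6% to 22.9% in males and 16.7% to 20.2% in females. Hoxa5 made up 8.31% to 13.4% of Hoxa reads in males and 13.3% to 22.5% in females, and Hoxc8 15.6% to 24.2% of Hoxc reads in males and 22.7% to 35.7% in females, so these ranges overlapped. These shares were not tested, and a share shows unequal change within a cluster, not which gene changed.

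**Figure D5:**
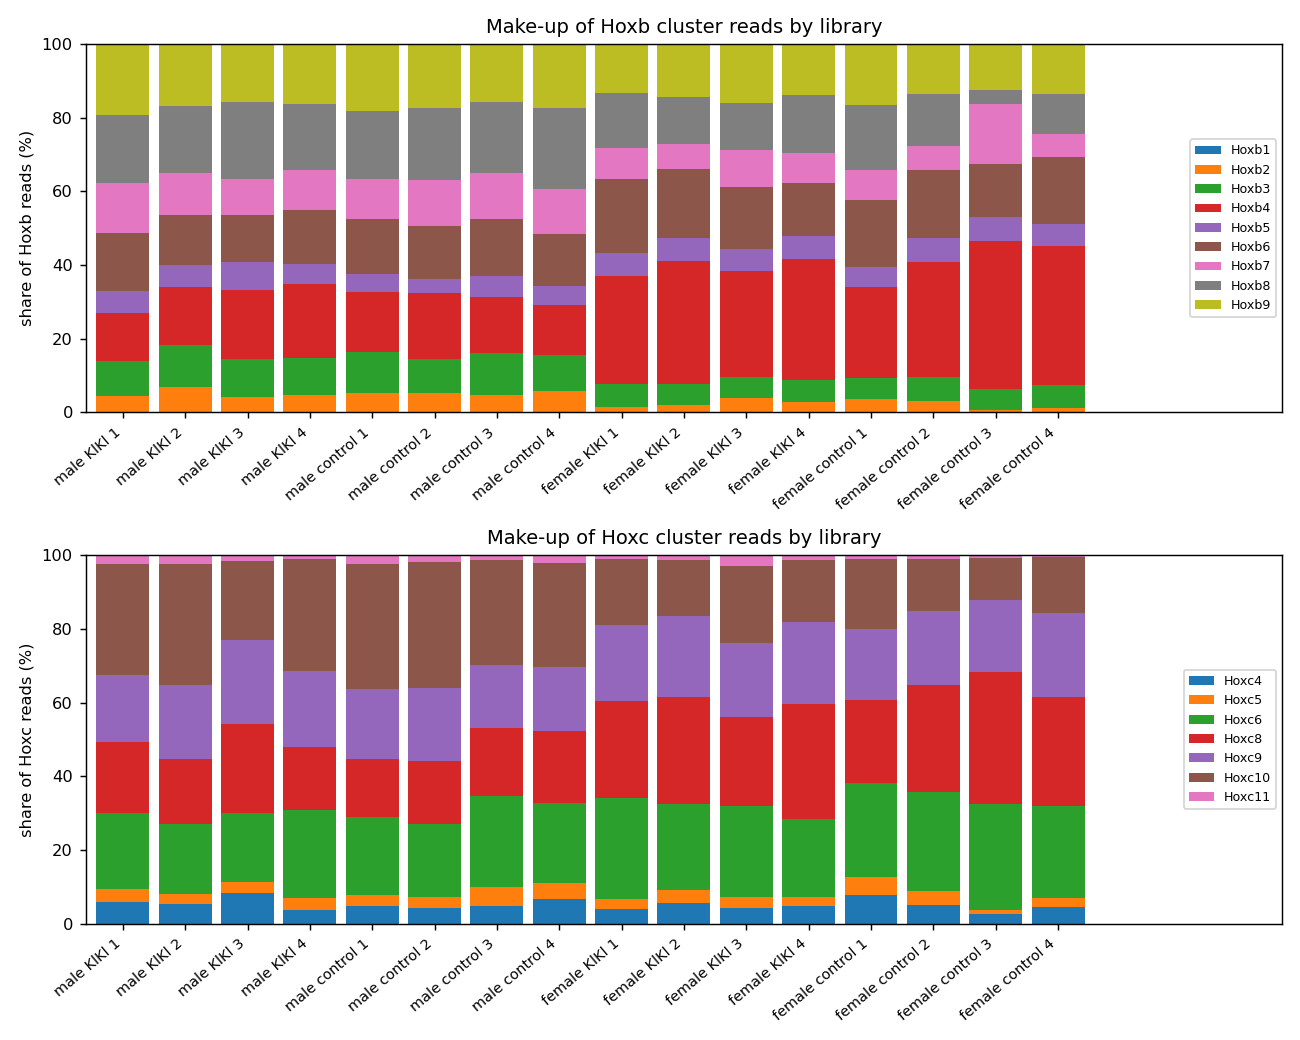
Share of Hoxb reads (upper panel) and of Hoxc reads (lower panel) held by each gene of the cluster, in percent, for each of the 16 libraries. Hoxb4 takes 13.2% to 20.1% of Hoxb reads in males and 24.8% to 40.04% in females, and Hoxc10 21.4% to 34.3% of Hoxc reads in males and 11.2% to 20.9% in females.

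Markers of kidney cell types were compared between the sexes in the same fit, in which 7.20% of all genes were lower and 46.5% higher in males on the deposited scale, and 23.7% lower and 23.1% higher after median-ratio scaling. Of 8 stromal and pericyte markers 4 were lower in males and 0 higher on the deposited scale, Col1a2 with a difference of -0.58, Acta2 with -0.70, Dcn with -0.53 and Tagln with -0.53, and 7 of 8 were lower after median-ratio scaling. Their median difference was -0.43, against 0.33 for all genes. Their summed level was 10.7 to 13.8 TPM in male KlKl and 7.20 to 11.04 TPM in male control, against 15.1 to 18.7 TPM in female KlKl and 12.1 to 15.8 TPM in female control kidneys. Of 12 collecting duct markers 4 were higher in males, led by the proton pump gene Atp6v1b1 with 0.70 and the keratin gene Krt8 with 0.45, and 2 were lower, the transcription factor gene Gata3 with -0.51 and the vasopressin receptor gene Avpr2 with -0.38. Their median difference was 0.14, and after median-ratio scaling 6 were lower and 0 higher. Their summed level was 82.1 to 175 TPM in males and 74.4 to 192 TPM in females. Of 8 proximal tubule markers 6 were higher in males, led by Cubn with 1.06, Slc22a6 with 2.19, Slc27a2 with 0.80 and Slc5a12 with 1.32, and after median-ratio scaling 3 were higher and 0 lower. In the other lists the counts higher in males were 2 of 6 for the thick ascending limb and distal convoluted tubule (Umod with 0.81 and Slc12a3 with 0.27), 2 of 5 for podocytes (Podxl with 0.66 and Synpo with 0.40) and 3 of 5 for endothelium (Kdr with 0.48, Pecam1 with 0.35 and Cdh5 with 0.41). They were 1 of 5 for macrophages (Csf1r with 0.42), 1 of 6 for urothelium (Upk3b with 0.78) and 1 of 3 for adrenal gland and perirenal fat (Star with 0.37), and the endothelial marker Flt1 was lower with -0.25. After median-ratio scaling 1 marker of the thick ascending limb and distal tubule, 1 of podocytes and 1 of urothelium were higher. Lower on that scale were 3 of the thick ascending limb and distal tubule, 2 of podocytes, 1 of urothelium, 2 of endothelium and 1 of macrophages. Between KlKl and control kidneys 0 of the 58 markers tested in these 9 lists passed in the limma fit, against 0.0219% of all genes. Unadjusted p was under 0.05 for 19 of the 58, against 22.2% of all genes, and 0 of 62 passed with limma voom. The part of these cell types in the Hox differences was not tested.

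Partners and regulators of Hox genes were described in the same fit, with the same shares of all genes as background. For KlKl against control 1 gene of 5 lists passed, Crabp1, which encodes a cytoplasmic retinoic acid binding protein, with a difference of 2.16 (SE 0.16, limma adjusted p = 2.71e-05). Of the TALE cofactors 5 of 9 were tested, and between the sexes Pknox1 was higher in males by 0.66 and Meis3 lower by 0.36 on the log2 scale, while after median-ratio scaling 1 was higher and 4 were lower. Of 17 Polycomb genes, which keep Hox genes silent, 10 were higher in males and 0 lower, with a median difference of 0.45 against 0.33 for all genes. The 4 with the smallest p were Suz12 with 0.59, Phc1 with 0.79, Ezh1 with 0.83 and Cbx2 with 0.89, and after median-ratio scaling 4 of 17 were higher and 5 lower. Of 10 Trithorax and H3K27 demethylase genes, which keep Hox genes active, 7 were higher, led by Rbbp5 with 0.57, Ash2l with 0.45, Men1 with 0.52 and Dpy30 with 0.49, and Psip1 was lower with -0.34. After median-ratio scaling 1 was higher and 3 were lower. Of 10 tested genes of retinoic acid and Cdx signalling upstream of Hox genes 5 were higher in males, led by Rxra with 1.05, Rxrb with 0.59, Rara with 0.71 and Gdf11 with 0.38, and 2 were lower, Cyp26a1 with -0.37 and Crabp1 with -0.43. After median-ratio scaling 3 were higher and 2 lower. Of 12 tested kidney development genes 6 were higher, among them Emx2 with 0.71 and Pax8 with 0.77, and Gata3 was lower. After median-ratio scaling 1 was higher and 4 were lower.

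The clusters also hold noncoding genes, 21 in the table within the spans of the members, of which 15 were tested. Between KlKl and control kidneys 0 of the 15 passed with limma, against 0.0219% of all genes. Unadjusted p was under 0.05 for 3 of the 15, against 22.2% of all genes, and 0 of 11 passed with limma voom. Between the sexes 7 of 15 were lower and 1 was higher in males, against 7.20% lower and 46.5% higher of all genes. After median-ratio scaling 9 of 15 were lower and 1 was higher, against 23.7% and 23.1% of all genes. The 3 with the highest mean TPM were a misc_RNA without a symbol (ENSMUSG00002075580), Hoxb3os and Hotairm1. The misc_RNA lies between Hotairm1 and Hoxa2, on the strand of Hotairm1 and next to its end. The misc_RNA averaged 9.21 ± 1.498 TPM in male KlKl and 5.31 ± 0.734 TPM in male control, against 12.9 ± 1.22 TPM in female KlKl and 12.9 ± 3.76 TPM in female control kidneys (SD over 4 libraries), and differed by -0.87 (SE 0.13, limma adjusted p = 5.52e-05). It had a mean of 23.9 reads per library. Hoxb3os, antisense to Hoxb2 and Hoxb3, averaged 3.35 ± 1.11 TPM in male KlKl and 2.42 ± 0.289 TPM in male control, against 4.02 ± 0.409 TPM in female KlKl and 3.39 ± 0.361 TPM in female control kidneys, with a difference of -0.39 (SE 0.13, limma adjusted p = 0.0202). Hoxb3os thus had the opposite sign to Hoxb2 and Hoxb3 on the deposited scale. Hotairm1, a noncoding RNA of the anterior end of the Hoxa cluster that is known from human myeloid cells, averaged 1.41 ± 0.213 TPM in male KlKl and 1.07 ± 0.277 TPM in male control, against 1.98 ± 0.298 TPM in female KlKl and 1.85 ± 0.213 TPM in female control kidneys, with a difference of -0.61 (SE 0.12, limma adjusted p = 0.000596).

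The other noncoding genes lower in males were Hoxb5os with -0.89, Haglr with -0.97, Hoxaas2 with -1.26 and Hoxd3os1 with -0.46. Haglr lies on the strand opposite to Hoxd3, and the 2 spans meet only at their edges. For Haglr the means were 0.123 ± 0.0240 TPM in male KlKl and 0.113 ± 0.0205 TPM in male control, against 0.319 ± 0.0737 TPM in female KlKl and 0.338 ± 0.0635 TPM in female control kidneys. Haglr and Hoxd3 thus differed in the same direction between the sexes. The gene higher in males was a misc_RNA without a symbol (ENSMUSG00002076637) with a mean of 1.53 reads. It lies wholly within Hotairm1 on the same strand, and Hotairm1 was lower in males. The noncoding genes counted are thus not all separate loci, and the split of reads between these genes is uncertain. Whether the authors counted by strand is not given in the sources used here. Where a gene and its antisense partner overlap, their reads therefore cannot be told apart.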

How the data were processed

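The authors deposited 1 table of TPM for 16 kidney RNA libraries, made from a directional library kit per the labels' protocols, with Partek and build mm39 per the submitters' processing notes. For the aligner, the annotation, the counting rule and filters, nothing is given in the sources used here. The deposited TPM sum to 309446 in each library and follow reads plus 0.0001 divided by the span of the gene. Reads were recovered from that relation. Of values under 20 reads, 81.3% of all and 93.4% of the 61 Hox values came out whole within 0.1 reads. An entry repeated with identical values was counted once.

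Limma 3.58.1 in R 4.3.3 fitted 4 group means to log2(TPM + 0.1) of 18273 genes with at least 0.1 TPM in 4 libraries, with a mean-variance trend and Benjamini-Hochberg adjustment per contrast at a threshold of 0.05. Differences of low genes are understated by the pseudocount. The contrasts were KlKl against control over both sexes and in each sex, how far that effect differed between the sexes, and males against females over both genotypes and in each. The fit was tested on simulated data. Alternatives were the pseudocount, the filter, other scalings, limma voom on recovered reads (17422 genes with at least 10 reads in 4 libraries), terms for replicate number, age and name series, subsets of libraries and leaving out each library. Several combinations with median-ratio scaling were added after seeing the data.

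The members and the lists of partners, regulators and cell type markers were chosen with earlier results of these data known. Values per library are given for members that passed, the 10 of highest mean TPM and the member of smallest p in each contrast. Of each list up to 4 passing genes are named by adjusted p, and 3 noncoding genes by mean TPM with all that passed. A member and a listed gene are counted but not reported singly here. Psip1, Cyp26a1 and Crabp1 were named after their values were seen. Spliced lengths came from GENCODE vM21 and promoters from RefSeq, both on GRCm38, whose coordinates were not mixed with mm39. The precision of low members is set by reads per library, and the floor of 3 reads covers counting error only.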

Additional observations from a re-analysis of the deposited data

Results flagged for a closer look

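Among 120 sets of 4 libraries looked at (30 Hox genes in 4 groups), 2 held a library whose distance to its nearest neighbour took up more of the range than Dixon's 95% limit for 4 samples. Chance flags about 1 in 20 such sets. Hoxb3 had 1.224 TPM in male KlKl 3, against 0.7375 to 0.7815 TPM in the other 3 male KlKl libraries. Male KlKl 3 had the largest median-ratio factor of all libraries, 1.51, so its deposited TPM are raised for the typical gene. After this scaling Hoxb3 had 0.811 TPM there, against 0.554 to 0.650 TPM in the other 3. The same library had the highest level among males for Hoxb4 and Hoxb8 and a low level of Kap, and the part of that library's state in the Hoxb3 value was not tested. Hoxc10 had 2.468 TPM in female KlKl 2, below the 2.726 to 2.754 TPM of the other 3 female KlKl libraries, which lay close together.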

How the results depend on the processing

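Of the 13 Hox genes that differed between the sexes over both genotypes, Hoxa5, Hoxb4, Hoxc6, Hoxc8 and Hoxc9 kept their direction and call under every alternative run. Hoxd3 kept its own in every alternative run that tested it. With at most 0.387 TPM in any library, it fell under the alternative filter of 1 TPM in 4 libraries. Hoxa6, Hoxb2 and Hoxb3 kept their direction and lost their calls under every setting with median-ratio scaling, and Hoxa6 (limma adjusted p = 0.0724) and Hoxb2 (limma adjusted p = 0.0585) also with heterozygous controls alone. The count over both genotypes was 20 after median-ratio scaling and 22 with limma voom on recovered reads. Combined with median-ratio scaling it was 20 with age as a term, 20 with the replicate block, 20 with the name series as a term, 20 without male KlKl 3 and 22 without male KlKl 3 and female control 3. In the same order of these 7 settings it was 13, 13, 13, 14, 14, 16 and 18 in KlKl kidneys and 19, 19, 18, 17, 18, 18 and 19 in control kidneys. With median-ratio scaling alone every called member was lower in males. Of all genes, 23.7% were then lower and 23.1% higher over both genotypes. The shares were 10.8% and 11.5% in KlKl kidneys, and 17% and 17.4% in control kidneys. With limma voom they were 26.2% and 27% over both genotypes. Shares for the combined settings are not given here.

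The Hoxa10 difference of males minus females reversed to -0.078 after median-ratio scaling, -0.043 with limma voom, and, combined with median-ratio scaling, -0.078 with age, the replicate block or the name series and -0.0461 without male KlKl 3 or without both libraries. Hoxc10 reversed to -0.11 after median-ratio scaling, -0.0091 after scaling on nuclear protein-coding genes and -0.088 with limma voom, and, combined with median-ratio scaling, to -0.10 with age, -0.11 with the replicate block or the name series, -0.062 without male KlKl 3 and -0.090 without both libraries. These scalings move every gene of a library together.

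Leaving out single libraries gave 11 to 15 calls over both genotypes, 5 to 10 in KlKl kidneys and 5 to 10 in control kidneys, with 5 in KlKl kidneys without male KlKl 1, female KlKl 2 or female KlKl 4, and 5 in control kidneys without male control 1 or male control 2. The fit of all 16 libraries called 13, 8 and 8 of 30 members, against 53.7%, 39.6% and 38.1% of all genes. Shares of all genes without single libraries are not given here. Every fit without a single library gave 0 calls in the KlKl contrasts. Hoxb6 ranged from -0.54 to -0.36 and lost its call without any of 9 libraries (male KlKl 2 and 4, male control 1 and 2, female KlKl 1 and 2, female control 1, 2 and 4). Hoxd4 ranged from -0.54 to -0.36 and lost its call without male KlKl 2, male KlKl 4, female KlKl 1, female KlKl 2 or female control 2, and with heterozygous controls alone (limma adjusted p = 0.0753).

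With age as a term on the deposited scale, 2 of 30 Hox genes were called for KlKl against control over both sexes, among 1183 of 18273 genes called in all. The cause was not tested. The replicate numbers are not stated to pair the libraries. Correlations of deviations ran from -0.13 to 0.16 within the 24 same-number pairs and from -0.13 to 0.12 within 72 different-number pairs. Of 16 libraries 5 correlated best with their own number. Such weak correlations cannot show whether the samples were paired. With the replicate block the Hoxb6 difference was -0.43 at a limma adjusted p of 0.0591. Depth limits Hoxb1, Hoxd1 and Hoxa6, while Hoxc5, with 9 to 55 reads over a span of 49984 bases, fell under the TPM filter, and the lowest-depth library, female control 3, had 9 reads for Hoxb2.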
